A study of Mus musculus with 12 samples.

Results

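Myc and the genes of ribosome biogenesis were followed across 4 groups of mouse liver, as a set of 37 genes listed by name: Myc and factors that transcribe, modify, cut and assemble ribosomal RNA. A gene was taken where an array probe set named it as the only gene, and was read through its brightest such probe set. This found 36 of the 37 among the 18193 genes tested. Npm3 was not found and is not analysed here. The rule for reading a gene used names and mean brightness, with no difference between groups. The genes listed were, however, chosen with earlier results of these data known.

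Liver RNA of male mice was read on 12 Affymetrix single-colour expression arrays, 3 for each group. The mice were wild type or Nrf2 null, that is, lacking the transcription factor encoded by Nfe2l2. All received a gavage 6 hours earlier, of vehicle or of CDDO-Im at a labelled dose of 30 uM/kg, a synthetic triterpenoid known to activate Nrf2. Strain, age and the way the null allele was made are not given in the sources used here, and whole liver was used, so that a gene expressed in fewer cells and a gene with less RNA per cell cannot be told apart. Nothing in the labels ties replicates to separate animals, so p-values here measure only how far these samples spread, which may be technical. Titles of the vehicle arrays carry a bracketed mark that CDDO-Im titles lack, and what it stands for cannot be told apart from the compound.

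Myc is a transcription factor that, paired with Max, binds the E-box CACGTG and is known to drive cell growth, in large part by raising the output of ribosomes. Ribosomal RNA is made by RNA polymerase I in the nucleolus, is modified there by small nucleolar ribonucleoproteins (snoRNPs), and is then cut and folded with ribosomal proteins into small and large subunits. In liver, Myc and this machinery are known to respond early to growth stimuli and injury, while Nrf2 is known mainly for antioxidant and detoxification genes.

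Genotype and treatment were first checked on their own genes. Values are log2 intensities as deposited. Nfe2l2 read 8.60 ± 0.09 (SD, n = 3) in wild type and 4.71 ± 0.24 (SD, n = 3) in Nrf2 null livers with vehicle. Nqo1, a quinone reductase and a textbook Nrf2 target, was higher by 2.07 under CDDO-Im in wild type (limma, adjusted p = 7.28e-08) and differed by 0.04 in Nrf2 null. Of 8 hepatocyte markers, such as Alb at 14.19 to 14.36, only Ass1 lay below the array median. Wild type vehicle replicate 3 and Nrf2 null vehicle replicate 2 carried pancreatic acinar transcripts: the median of 11 acinar markers stood 3.41 and 2.02 above its mean level there, and at -0.68 to -0.44 on the other 10 arrays. Each result that rests on these arrays is given without them where that changes it. Levels of different genes are not compared, since probe sets differ in brightness.

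The promoters show which of these genes hold the E-box that Myc and its relatives bind. RefSeq promoters of build GRCm38.p6, from 250 bases before to 50 after the start of each gene, matched 30 of the 36 genes. Myc, Npm1, Fbl, Rrp12, Bop1 and Rrs1 were not matched. The motif CACGTG, which reads the same on both strands, was found in 7 of the 30 (23.3%). Of other biogenesis factors 19 of 91 (20.9%) held it, of ribosomal protein genes 4 of 40, and of all 27025 genes with a promoter 2187 (8.09%). The core of the antioxidant response element, TGACNNNGC on either strand, was in 2 of the 30 (6.67%), Gar1 and Bysl, against 14.0% of all genes. A match is a description of these letters and no evidence of binding. The 7 E-box windows are shown as 30 bases each, on the strand of the gene, with the motif in capitals.
Nop2 (chr6:125131811-125131840, plus strand): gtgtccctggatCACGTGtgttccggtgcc
Pes1 (chr11:3963965-3963994, plus strand): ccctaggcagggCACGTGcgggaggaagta
Tsr1 (chr11:74898092-74898121, plus strand): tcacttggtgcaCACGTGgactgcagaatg
Mybbp1a (chr11:72441347-72441376, plus strand): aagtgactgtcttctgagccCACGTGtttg
Wdr43 (chr17:71616220-71616249, plus strand): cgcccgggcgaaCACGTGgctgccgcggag
Ltv1 (chr10:13193092-13193121, minus strand): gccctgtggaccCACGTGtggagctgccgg
Grwd1 (chr7:45830740-45830769, minus strand): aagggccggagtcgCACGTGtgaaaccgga
Nop2 held the motif upstream, at position -60, and the others at or after the annotated start. Pes1 differed under CDDO-Im by 0.29 in wild type and 0.22 in Nrf2 null, Grwd1 by -0.23 and -0.31, and Ltv1 by -0.03 and -0.48. Nop2 differed by 0.09 in wild type and -0.16 in Nrf2 null, and Mybbp1a by 0.11 and -0.08. Tsr1 differed by 0.13 and -0.38, and Wdr43 by 0.10 and 0.10. Grwd1 and Ltv1 were called lower in Nrf2 null.

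In wild type liver CDDO-Im raised Myc, the RNA methyltransferase Fbl and the large subunit factor Wdr12, and lowered Heatr1, a factor of early small subunit assembly. Most other genes of the set stood slightly above their vehicle level. A gene was called at a limma adjusted p under 0.05, with adjustment over all genes tested, and 1.82% of all genes passed. The 3 genes called higher compare with 0.978% of all genes, and the 1 called lower with 0.846%. The difference was above 0 for 30 of 36 genes (83.3%), with a median of 0.20, against 51.9% and a median of 0.01 over all genes. At an unadjusted p under 0.05 stood 17 of the 36 (47.2%), against 13.6% of all genes. On 14 genes all CDDO-Im arrays lay above all vehicle arrays, and on 2 below, where all genes gave 8.42% and 8.18%. Without Myc the median of the other 35 was 0.19.

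In Nrf2 null liver CDDO-Im raised Npm1, the nucleolar chaperone nucleophosmin, and lowered Polr1e, Rrp12, Ltv1 and Grwd1. The background was 5.9% of all genes called, 3.58% higher and 2.32% lower. The difference was above 0 for 15 of 36 genes (41.7%), with a median of -0.05, against 48.6% and 0.00 over all genes. Arrays were separated upward for 5 genes and downward for 11, against 11.6% and 11.4% of all genes (23.1% in both directions).

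Averaged over both genotypes, CDDO-Im raised 6 genes, namely Myc, Npm1, Fbl, Nop56, Dkc1 and Wdr12, and lowered Polr1e, Heatr1 and Grwd1. The background here was 5.62% higher and 4.84% lower. The median over the 36 genes was 0.06. In this mean the Myc call was lost without wild type vehicle replicate 1 or 2, Nrf2 null vehicle replicate 2 or Nrf2 null CDDO-Im replicate 3 (adjusted p 0.0505 to 0.0611). The Fbl call was lost without replicate 1 of either vehicle group, wild type vehicle replicate 2, wild type CDDO-Im replicate 1 or 2, or Nrf2 null CDDO-Im replicate 2 or 3 (adjusted p 0.0527 to 0.0689). Dkc1, Heatr1, Wdr12 and Grwd1 lost theirs where all probe sets of a gene were averaged.

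**Figure D1:**
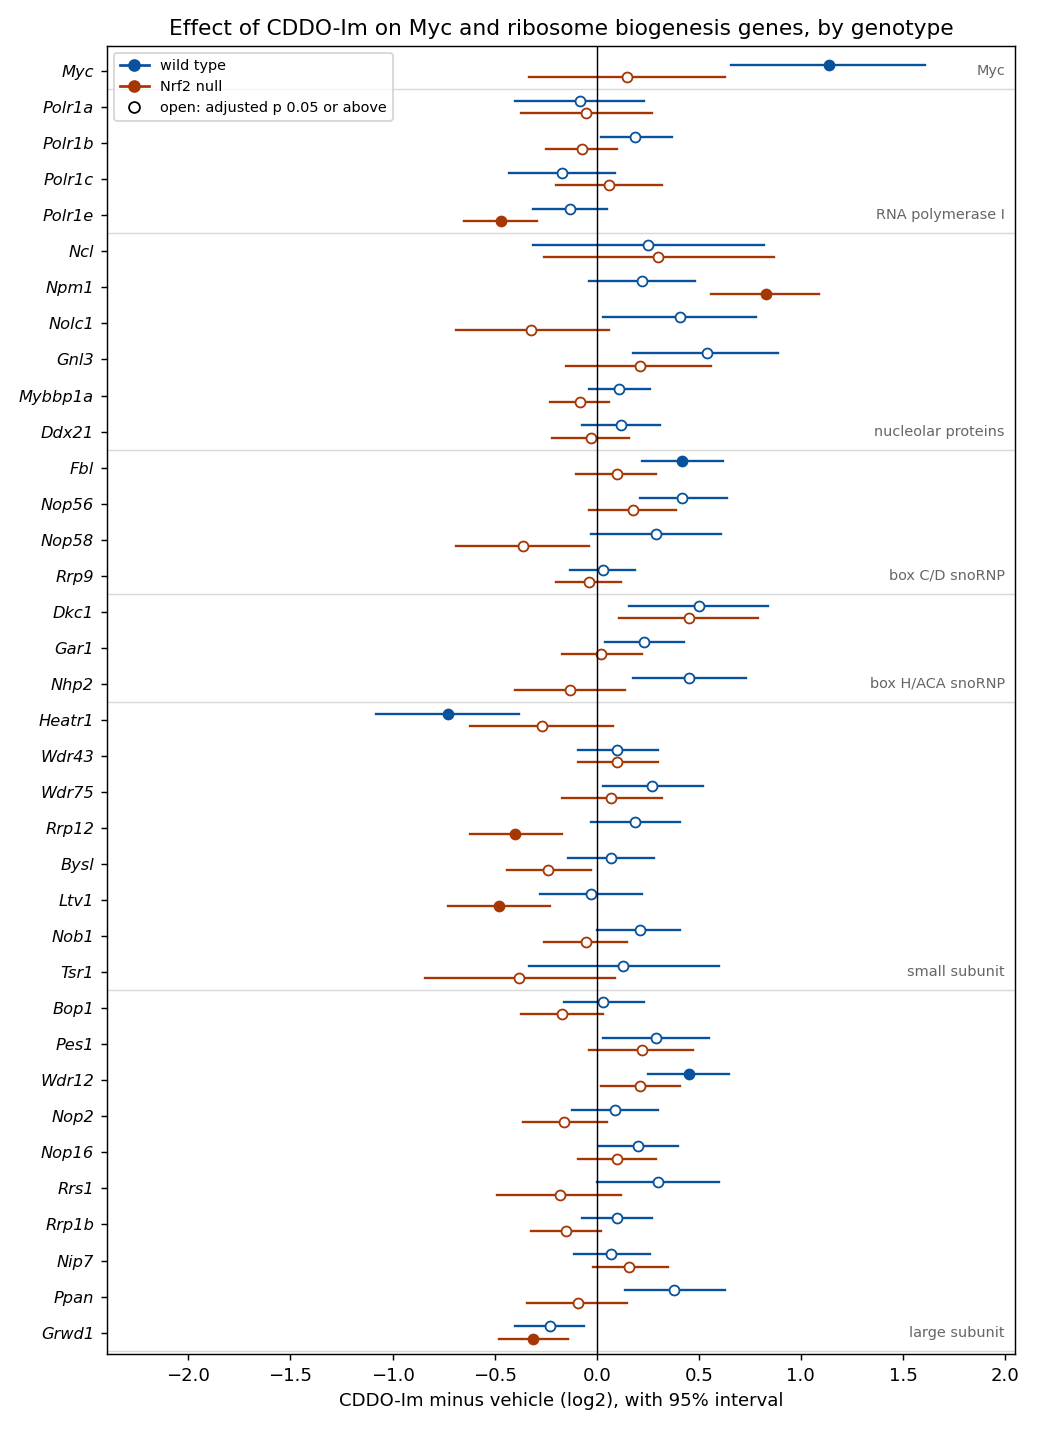
Difference between CDDO-Im and vehicle (log2, horizontal axis) for each of the 36 genes, in wild type (blue) and Nrf2 null (red) liver, with 95% intervals and grouped by role. Filled points passed an adjusted p of 0.05. Of the blue points 30 lie right of 0 and of the red points 15.

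The signed difference between CDDO-Im and vehicle was higher in wild type than in Nrf2 null for 29 of 36 genes (80.6%), against 51.6% of all genes. The median difference of effects was 0.24, against 0.01 over all genes. This is no count of larger changes. Polr1e, which fell more in Nrf2 null (-0.47, against -0.13 in wild type), is among the 29. Heatr1, which fell more in wild type (-0.73, against -0.27 in Nrf2 null), is not. The test of the difference of effects, the interaction, called 0 of the 36 genes by limma. At an unadjusted p under 0.05 stood 14 (38.9%), against 7.1% of all genes. The background of calls was 0.137% of all genes, 0.126% with the higher signed difference in wild type and 0.011% with the lower. The lowest adjusted p was 0.256, for Rrp12. The effect stood above 0 in both genotypes for 14 genes, in wild type alone for 16, in Nrf2 null alone for 1, and below 0 in both for 5. Over all 18193 genes these counts were, in the same order, 5774, 3672, 3060 and 5687.

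Set beside each gene's mean over the 12 arrays, the median deviation of the 36 genes was -0.07, -0.02 and -0.06 on the wild type vehicle arrays and 0.12, 0.27 and 0.04 on the wild type CDDO-Im arrays. It was -0.01, -0.04 and 0.00 with vehicle and -0.02, -0.07 and -0.06 with CDDO-Im in Nrf2 null. The wild type CDDO-Im arrays were the 3 highest of the 12, and the second replicate stood furthest out. Kupffer cell markers were also at their highest on that array: the median of 8 markers deviated there by 0.56, against -0.68 to 0.51 on the other arrays. Of these markers 7 of 8 stood above 0 with CDDO-Im in each genotype, and their summed log2 level ran from 11.72 to 12.72 and from 12.13 to 12.69 in wild type with vehicle and CDDO-Im, and from 11.31 to 12.17 and from 12.14 to 12.22 in Nrf2 null. Their part in the result was not tested.

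**Figure D2:**
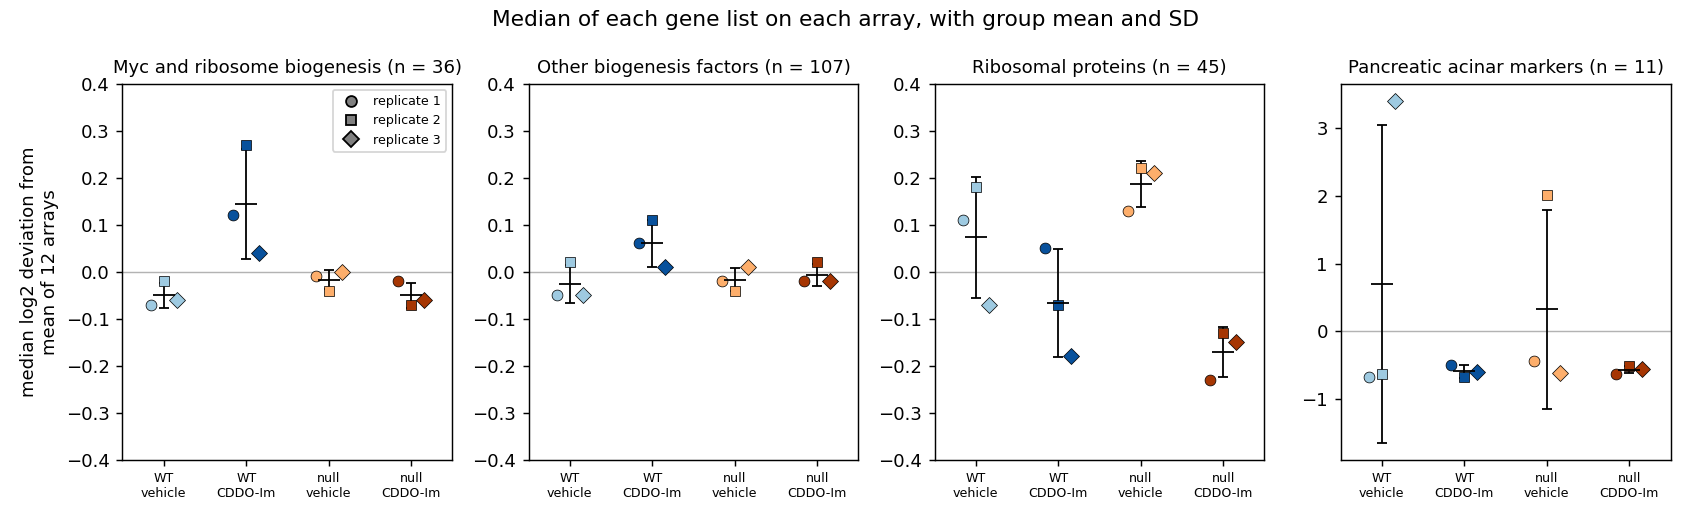
Median deviation from each gene's 12-array mean (log2, vertical axis) on each array, by group, for the 36 genes, 107 other biogenesis factors, 45 ribosomal protein genes and 11 pancreatic acinar markers (own scale), with bars for the group mean and SD. The 36 genes reach 0.04 to 0.27 on the wild type CDDO-Im arrays and -0.07 to 0.00 elsewhere, and the acinar markers reach 3.41 and 2.02 on 2 vehicle arrays.

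CDDO-Im raised Myc in wild type liver. Myc read 6.25, 6.14 and 7.02 with vehicle and 7.58, 7.59 and 7.66 with CDDO-Im in wild type. Nrf2 null values were 6.35, 6.07 and 6.52 with vehicle and 6.79, 6.11 and 6.48 with CDDO-Im. All 3 wild type CDDO-Im arrays lay above the other 9, and the Nrf2 null groups overlapped. The rise was 1.14 ± 0.22 (SE), or 2.20-fold, in wild type (adjusted p = 0.0244), and the difference was 0.15 in Nrf2 null (adjusted p = 0.793). Under CDDO-Im, Nrf2 null fell below wild type by 1.15 ± 0.22 (SE) (adjusted p = 0.0232), a comparison that shares the wild type CDDO-Im arrays with the rise. That call was lost without any 1 wild type CDDO-Im array or Nrf2 null CDDO-Im replicate 2 or 3 (-1.16 to -0.98, adjusted p 0.0654 to 0.0912). With vehicle the genotypes differed by -0.16 (adjusted p = 0.807).

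The difference of the Myc effects between genotypes was 0.99, with a 95% interval from 0.31 to 1.66 and an adjusted p of 0.454. The highest wild type vehicle value, 7.02, came from the array with the highest acinar markers. The other acinar array, Nrf2 null vehicle replicate 2, held the lowest Myc value of the 12 arrays, 6.07. Without the wild type acinar array the rise was 1.41 (adjusted p = 0.000281). Without both acinar arrays the interaction was 1.39 and passed, at an adjusted p of 0.0395. With any 1 array left out, either acinar array included, the interaction called 0 genes of the set. Leaving out either other wild type vehicle array or any 1 wild type CDDO-Im array gave 0.97 to 1.15, with adjusted p from 0.0645 to 0.136.

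Among the partners and antagonists of Myc, 0 of 13 genes were called in wild type by limma, against 1.82% of all genes. At an unadjusted p under 0.05 stood 1 of the 13, against 13.6% of all genes. Max, the obligate partner, differed by 0.03 in wild type and -0.07 in Nrf2 null. In Nrf2 null 1 of the 13 was called, and it was higher, against 5.9% of all genes called and 3.58% called higher. This was Mxi1, a repressor that competes with Myc for Max, which rose by 0.80 ± 0.16 (SE) (adjusted p = 0.0170). In wild type Mxi1 differed by 0.36 (adjusted p = 0.352). The Nrf2 null call was lost without vehicle replicate 1 or CDDO-Im replicate 3 there.

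**Figure D3:**
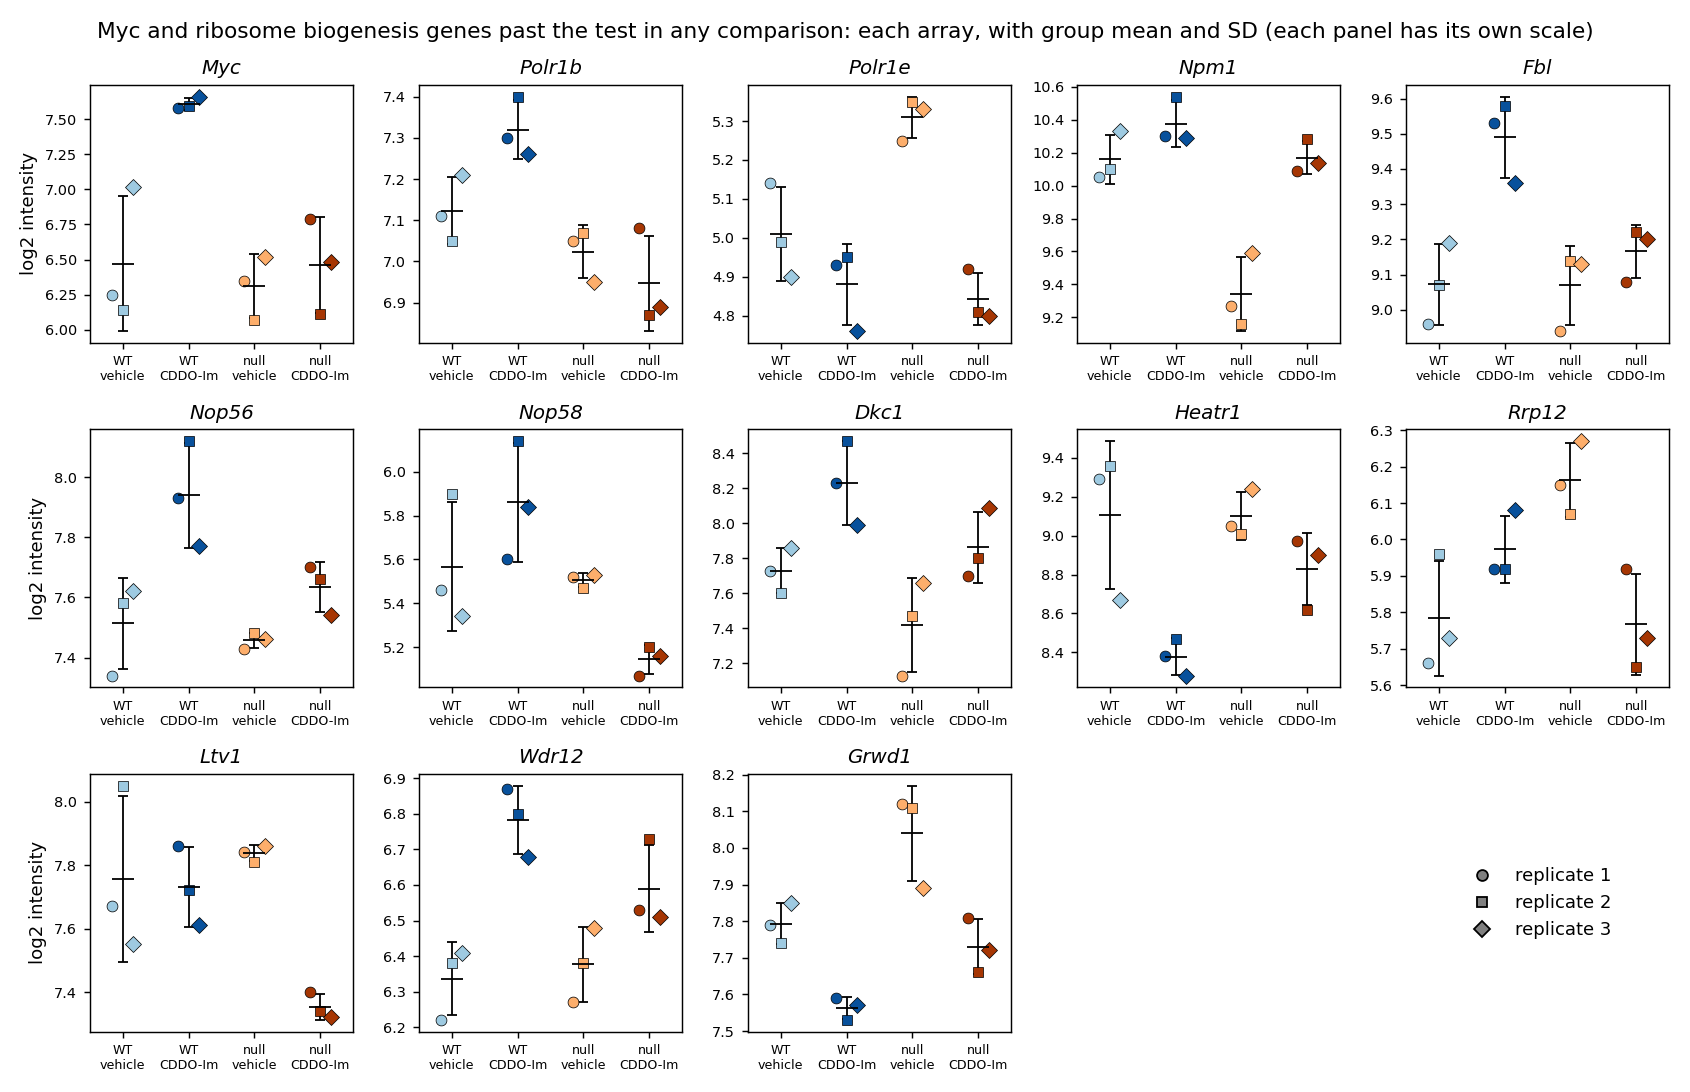
Log2 intensity (vertical axis) on each array for the 13 genes of the set called in at least 1 comparison, by group, with points for arrays and bars for the mean and SD of 3 arrays. The 3 wild type CDDO-Im arrays of Myc lie at 7.58 to 7.66, and the 3 Nrf2 null vehicle arrays of Npm1 at 9.16 to 9.59 lie below its other 9.

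Of the 4 RNA polymerase I subunits 1, Polr1b, stood above 0 in wild type, and none was called there. Polr1a and Polr1b form the catalytic core, Polr1c is shared with RNA polymerase III, and Polr1e takes part in initiation. Their median difference was -0.11 in wild type and -0.06 in Nrf2 null. Polr1e read 5.25, 5.35 and 5.33 with vehicle and 4.92, 4.81 and 4.80 with CDDO-Im in Nrf2 null, without overlap. In wild type it read 5.14, 4.99 and 4.90 with vehicle and 4.93, 4.95 and 4.76 with CDDO-Im, and these groups overlapped. The fall was 0.47 on the log2 scale in Nrf2 null (adjusted p = 0.0113), and the wild type difference was -0.13 (adjusted p = 0.564). The mean signal of Polr1e, 5.01, was below the median of all probe sets, and without Nrf2 null CDDO-Im replicate 3 the adjusted p was 0.0551.

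In wild type Polr1b read 7.11, 7.05 and 7.21 with vehicle and 7.30, 7.40 and 7.26 with CDDO-Im, separated upward, a difference of 0.19 (adjusted p = 0.298). It differed between the genotypes under CDDO-Im, where the background was 1.45% of all genes called, 0.621% higher and 0.824% lower in Nrf2 null. Nrf2 null read 7.08, 6.87 and 6.89 under CDDO-Im, without overlap with wild type. It was lower in Nrf2 null by 0.37 ± 0.08 (SE) (adjusted p = 0.0433). That call was lost without any 1 of 10 of the 12 arrays (-0.40 to -0.33, adjusted p 0.0506 to 0.164), the exceptions being wild type vehicle replicate 3 and Nrf2 null CDDO-Im replicate 1. Polr1a and Polr1c were called in none of the comparisons.

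The abundant nucleolar proteins all stood above 0 in wild type, 6 of 6, with a median of 0.24, yet none was called there. Npm1, a histone and ribosome chaperone that shuttles between nucleolus and cytoplasm, was the exception in Nrf2 null. It read 10.05, 10.10 and 10.33 with vehicle and 10.30, 10.54 and 10.29 with CDDO-Im in wild type. The Nrf2 null arrays read 9.27, 9.16 and 9.59 with vehicle and 10.09, 10.28 and 10.14 with CDDO-Im. The 3 Nrf2 null vehicle arrays lay below the other 9, so Nrf2 null livers with CDDO-Im reached the range of wild type vehicle.

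Npm1 rose by 0.83 ± 0.12 (SE), or 1.78-fold, in Nrf2 null (adjusted p = 0.00709), and its call held under all 19 alternatives run. In wild type it differed by 0.22 (adjusted p = 0.487). With vehicle it was lower in Nrf2 null than in wild type by 0.82 (adjusted p = 0.0184), the 1 gene of the 36 called there, where the background was 0.39% of all genes called, 0.115% higher and 0.275% lower. These 2 comparisons share the Nrf2 null vehicle arrays. Without Nrf2 null vehicle replicate 1 the genotype difference had an adjusted p of 0.108, without replicate 2 of 0.0718, and without both acinar arrays it was -0.64 (adjusted p = 0.0594). The other bright Npm1 probe set gave 0.67 for CDDO-Im in Nrf2 null and -0.72 for genotype with vehicle.

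Ncl, nucleolin, which binds nascent ribosomal RNA, was also lower in Nrf2 null with vehicle, at 8.42, 8.96 and 9.11 against 9.67, 9.78 and 9.44 in wild type. The groups did not overlap, and the difference of -0.80 had an adjusted p of 0.208. Nolc1, a chaperone of snoRNPs, and Gnl3, nucleostemin, had the widest wild type differences of this class, at 0.41 (adjusted p = 0.315) and 0.54 (adjusted p = 0.134). Nolc1 read 7.26, 7.99 and 7.54 with CDDO-Im in wild type, and its highest value was on the second replicate, as for Gnl3 at 8.43, 9.06 and 8.56. In Nrf2 null, Nolc1 differed by -0.32 and Gnl3 by 0.21. Mybbp1a, a nucleolar Myb-binding protein, and Ddx21, an RNA helicase, differed by 0.11 and 0.12 in wild type.

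The snoRNP proteins had the highest wild type medians of the set after Myc. These were 0.36 for 4 box C/D proteins and 0.45 for 3 box H/ACA proteins. In Nrf2 null these medians were 0.03 and 0.02. Outside the set, 6 other snoRNP factors did not share this pattern, with a median of 0.10 in wild type and 0.17 in Nrf2 null. Fbl, fibrillarin, is the methyltransferase of the box C/D particle. It read 8.96, 9.07 and 9.19 with vehicle and 9.53, 9.58 and 9.36 with CDDO-Im in wild type, without overlap. On Nrf2 null arrays it read 8.94, 9.14 and 9.13 with vehicle and 9.08, 9.22 and 9.20 with CDDO-Im, and the groups overlapped.

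Fbl rose by 0.42 ± 0.09 (SE) in wild type (adjusted p = 0.0399) and differed by 0.10 in Nrf2 null (adjusted p = 0.638). Its call was lost without wild type vehicle replicate 1 or 2, wild type CDDO-Im replicate 1 or 2, Nrf2 null vehicle replicate 2, or Nrf2 null CDDO-Im replicate 2 or 3 (0.36 to 0.42, adjusted p 0.0569 to 0.20). Its second probe set gave 0.63 in wild type. The Fbl probe set is of a kind that can share probes with other transcripts, as are those of Gar1, Nhp2, Tsr1, Grwd1 and Rrs1.

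Nop56, a scaffold of the same particle, read 7.34, 7.58 and 7.62 with vehicle and 7.93, 8.12 and 7.77 with CDDO-Im in wild type. Nrf2 null values were 7.43, 7.48 and 7.46 with vehicle and 7.70, 7.66 and 7.54 with CDDO-Im. The groups were separated upward in both genotypes. The mean effect was a rise of 0.30 ± 0.07 (SE) (adjusted p = 0.0184), with 0.42 in wild type (adjusted p = 0.0554) and 0.18 in Nrf2 null (adjusted p = 0.371).

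Nop58, the partner scaffold, differed by 0.29 in wild type and -0.36 in Nrf2 null. Under CDDO-Im it read 5.60, 6.14 and 5.84 in wild type and 5.07, 5.20 and 5.16 in Nrf2 null, without overlap, and was lower in Nrf2 null by 0.71 ± 0.15 (SE) (adjusted p = 0.0359). Its mean signal, 5.52, was below the median of all probe sets, and leaving out any 1 of 9 arrays lost the call (-0.74 to -0.57, adjusted p 0.0521 to 0.13). The 3 arrays that could be left out without losing it were wild type vehicle replicates 2 and 3 and wild type CDDO-Im replicate 1. Rrp9, a protein of the snoRNP that directs early cleavage, differed by 0.03 in wild type and -0.04 in Nrf2 null.

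Of the box H/ACA proteins, Dkc1 is dyskerin, the enzyme that converts uridine to pseudouridine, and Gar1 and Nhp2 are its partners. All 3 had separated, higher arrays in wild type with CDDO-Im, against 8.42% of all genes. Dkc1 read 7.73, 7.60 and 7.86 with vehicle and 8.23, 8.47 and 7.99 with CDDO-Im in wild type. The Nrf2 null arrays read 7.13, 7.47 and 7.66 with vehicle and 7.70, 7.80 and 8.09 with CDDO-Im, also without overlap. Dkc1 differed by 0.50 in wild type and 0.45 in Nrf2 null, and the difference of these effects was 0.05.

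The mean rise of Dkc1 was 0.47 ± 0.11 (SE) (adjusted p = 0.0187), and 0.44 with an adjusted p of 0.0512 without wild type vehicle replicate 2. Its other probe sets gave 0.27 and 0.07 in wild type and 0.19 and 0.04 in Nrf2 null, and the mean of all probe sets gave a mean difference of 0.25 (adjusted p = 0.112). Nhp2 read 8.05, 8.32 and 8.22 with vehicle and 8.90, 8.62 and 8.42 with CDDO-Im in wild type, a difference of 0.45 (adjusted p = 0.0985), and differed by -0.13 in Nrf2 null. Gar1 differed by 0.23 (adjusted p = 0.250) and 0.02.

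Among 8 factors of small subunit assembly, 6 stood above 0 in wild type and 2 in Nrf2 null, with medians of 0.12 and -0.25. In Nrf2 null, 5 of the 8 had CDDO-Im arrays all below the vehicle arrays, against 11.4% of all genes. Heatr1, which links ribosomal RNA transcription to processing, was the 1 gene of these called in wild type, and it was lower. It read 9.29, 9.36 and 8.67 with vehicle and 8.38, 8.47 and 8.28 with CDDO-Im in wild type, without overlap. On Nrf2 null arrays it read 9.05, 9.01 and 9.24 with vehicle and 8.97, 8.62 and 8.90 with CDDO-Im, again all lower. The wild type vehicle value nearest to CDDO-Im, 8.67, was read on an array with acinar transcripts, without which the wild type difference was -0.95 (adjusted p = 0.00028).

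The fall of Heatr1 was 0.73 on the log2 scale in wild type (adjusted p = 0.0443), and the difference was -0.27 in Nrf2 null (adjusted p = 0.419). It rested on the brightest probe set: the dimmer ones, at mean levels of 5.71 and 5.10, gave 0.24 and 0.17, and the mean of all probe sets gave -0.11 (adjusted p = 0.602). Leaving out any 1 array other than wild type vehicle replicate 3 also lost the call (-0.78 to -0.60, adjusted p 0.0507 to 0.21).

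Rrp12, which takes part in export of subunit precursors, read 6.15, 6.07 and 6.27 with vehicle and 5.92, 5.65 and 5.73 with CDDO-Im in Nrf2 null. In wild type it read 5.66, 5.96 and 5.73 with vehicle and 5.92, 5.92 and 6.08 with CDDO-Im. The Nrf2 null groups were separated downward and the wild type groups overlapped. Its fall in Nrf2 null was 0.40 on the log2 scale (adjusted p = 0.0433), and the wild type difference was 0.19 (adjusted p = 0.469). The call was lost without any 1 of 9 arrays (-0.44 to -0.34, adjusted p 0.0502 to 0.146), all but wild type vehicle replicates 2 and 3 and Nrf2 null CDDO-Im replicate 1. It was also lost without both acinar arrays.

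Ltv1, a factor removed late from the small subunit, read 7.84, 7.81 and 7.86 with vehicle and 7.40, 7.34 and 7.32 with CDDO-Im in Nrf2 null. In wild type it read 7.67, 8.05 and 7.55 with vehicle and 7.86, 7.72 and 7.61 with CDDO-Im. The Nrf2 null arrays were tight and separated, and the wild type arrays overlapped. The fall was 0.48 ± 0.11 (SE) in Nrf2 null (adjusted p = 0.0315), against -0.03 in wild type (adjusted p = 0.963). Leaving out any 1 Nrf2 null array gave an adjusted p from 0.0531 to 0.115. The other small subunit factors, Wdr43, Wdr75, Bysl, Nob1 and Tsr1, passed in no comparison. Among these, Tsr1 differed by 0.13 in wild type and -0.38 in Nrf2 null, Bysl by 0.07 and -0.24, and Nob1, the nuclease that makes the mature end of the small subunit RNA, by 0.21 and -0.05.

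Among 10 factors of large subunit assembly, 9 stood above 0 in wild type and 4 in Nrf2 null, with medians of 0.15 and -0.12. Bop1, Pes1 and Wdr12 form a complex needed to process large subunit RNA, and Wdr12 alone of them was called. It read 6.22, 6.38 and 6.41 with vehicle and 6.87, 6.80 and 6.68 with CDDO-Im in wild type. Nrf2 null values were 6.27, 6.38 and 6.48 with vehicle and 6.53, 6.73 and 6.51 with CDDO-Im. Both genotypes were separated upward, wild type by the wider margin.

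Wdr12 rose by 0.45 ± 0.09 (SE) in wild type (adjusted p = 0.0280), and differed by 0.21 in Nrf2 null (adjusted p = 0.216). Its dimmer probe sets, at mean levels of 4.77 and 3.81, gave -0.17 and 0.01 in wild type, and the mean of all gave 0.10 (adjusted p = 0.585). The call was also lost without wild type replicate 1 or 2 of either treatment (0.39 to 0.47, adjusted p 0.0947 to 0.162). Pes1 differed by 0.29 in wild type (adjusted p = 0.284) and Bop1 by 0.03 (adjusted p = 0.944).

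Grwd1, a chaperone of ribosomal protein assembly, was the 1 large subunit factor below 0 in wild type. It read 7.79, 7.74 and 7.85 with vehicle and 7.59, 7.53 and 7.57 with CDDO-Im in wild type. In Nrf2 null it read 8.12, 8.11 and 7.89 with vehicle and 7.81, 7.66 and 7.72 with CDDO-Im. Both genotypes were separated downward.

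The fall of Grwd1 was 0.31 ± 0.08 (SE) in Nrf2 null (adjusted p = 0.0382), with -0.23 in wild type (adjusted p = 0.181) and a mean fall of 0.27 (adjusted p = 0.00926). Its other probe sets gave -0.09 and -0.02 in Nrf2 null, the mean of all gave -0.14 (adjusted p = 0.262), and leaving out any 1 of 8 arrays lost the call (-0.31 to -0.27, adjusted p 0.0512 to 0.139). These were wild type vehicle replicate 1, the 3 wild type CDDO-Im arrays, and replicates 1 and 2 with vehicle and 2 and 3 with CDDO-Im in Nrf2 null. The Nrf2 null call was also lost without both acinar arrays.

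Of the remaining large subunit factors none was called in any comparison. Ppan differed by 0.38 in wild type (adjusted p = 0.120) and -0.09 in Nrf2 null, and Rrs1, which loads a small ribosomal RNA into the large subunit, by 0.30 and -0.18. Rrs1 came closest to a genotype call under CDDO-Im, at 8.08, 8.43 and 8.05 in wild type and 7.67, 7.54 and 7.55 in Nrf2 null (-0.60, adjusted p = 0.0607). Nop2, Nop16, Rrp1b and Nip7 lay between 0.07 and 0.20 in wild type.

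Between genotypes, most of the set stood below wild type in Nrf2 null under CDDO-Im. With vehicle 20 of 36 genes stood above 0 in Nrf2 null, with a median of 0.04, against 55.3% and 0.02 over all genes. With vehicle 9 genes were separated upward and 2 downward, against 8.55% and 8.49% of all genes. Under CDDO-Im 7 of 36 (19.4%) stood above 0, with a median of -0.19, against 52.2% and 0.01 over all genes. Under CDDO-Im the 3 genes called were Myc, Polr1b and Nop58, all lower in Nrf2 null. Arrays under CDDO-Im were separated downward for 13 genes and upward for 3, against 7.82% and 9.01% of all genes.

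Other factors of ribosome biogenesis were read beside the set. Of 107 measured, 1 was called higher in wild type and 0 lower by limma, against 0.978% and 0.846% of all genes, with 26 of the 107 (24.3%) at an unadjusted p under 0.05 against 13.6%. The gene called was Sdad1, at 0.44 (adjusted p = 0.0136), and 0 were called without wild type vehicle replicate 1 or 2 or wild type CDDO-Im replicate 2. Without wild type vehicle replicate 3 the counts were 8 higher and 3 lower, and without both acinar arrays 5 and 3. Of all genes 332 were called in wild type with all 12 arrays, and 104 to 1385 with any 1 array left out. The median of the 107 was 0.09 in wild type, with 71 above 0, and 0.02 in Nrf2 null, with 60 above 0. The signed difference was higher in wild type for 75 of the 107 (70.1%), against 51.6% of all genes, with a median difference of effects of 0.08. The interaction called 0 of the 107 by limma, with 13 (12.1%) at an unadjusted p under 0.05 against 7.1% of all genes. In Nrf2 null 4 were called higher, among these Imp3 at 0.46 (adjusted p = 0.0171) and Pak1ip1 at 0.45 (adjusted p = 0.0180), and 3 lower, Ddx49 at -0.53, Gnl2 at -0.51 and Taf1c at -0.30. These counts compare with 3.58% and 2.32% of all genes. In Nrf2 null 0 were called without vehicle replicate 1 or 2 or CDDO-Im replicate 2 or 3, and 3 higher and 3 lower without both acinar arrays. Without Nrf2 null CDDO-Im replicate 1 there were 3 higher and 1 lower, without vehicle replicate 3 there 4 and 0, and without wild type vehicle replicate 3 there were 5 and 5. Leaving out wild type vehicle replicate 1, or wild type CDDO-Im replicate 1 or 3, gave 4 and 2. Of all genes 1074 were called in Nrf2 null with all 12 arrays, and 97 to 1615 with any 1 array left out. Under CDDO-Im the genotypes differed in Rcl1, higher in Nrf2 null by 0.64 (adjusted p = 0.00305), and Nol8, lower by 0.46 (adjusted p = 0.0366). The lower count there was 0 without wild type vehicle replicate 1, wild type CDDO-Im replicate 2 or 3, Nrf2 null vehicle replicate 2, or Nrf2 null CDDO-Im replicate 1 or 2.

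The ribosomal protein genes, whose products are the substrates of this machinery, stood mostly below 0 under CDDO-Im. Of 45 measured, 7 stood above 0 under CDDO-Im in wild type and 3 in Nrf2 null, with medians of -0.16 and -0.36. In wild type 0 were called by limma, with 17 (37.8%) at an unadjusted p under 0.05 against 13.6% of all genes. In Nrf2 null 20 were called lower, against 2.32% of all genes, and 35 had separated, lower arrays, against 11.4%. Rps20, of the small subunit, read 12.36, 12.46 and 11.94 with vehicle and 11.78, 11.89 and 11.67 with CDDO-Im in wild type. In Nrf2 null it read 12.48, 12.33 and 12.45 with vehicle and 11.63, 11.50 and 11.55 with CDDO-Im.

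Rps20 fell by 0.86 in Nrf2 null (adjusted p = 0.00601), and differed by -0.47 in wild type (adjusted p = 0.0754). Rpsa fell by 0.68 (adjusted p = 0.0113) and Rplp2 by 0.59 (adjusted p = 0.00958) in Nrf2 null. The interaction called 0 of the 45 by limma, with 7 (15.6%) at an unadjusted p under 0.05 against 7.1% of all genes, 40 of 45 above 0 and a median of 0.20. With vehicle 38 of the 45 stood higher in Nrf2 null than in wild type, with a median of 0.13 against 0.02 over all genes. Under CDDO-Im 6 of the 45 did, with a median of -0.08 against 0.01. Limma called 0 of the 45 in each of these, with 3 (6.67%) at an unadjusted p under 0.05, against 13.2% and 11.3% of all genes. In Nrf2 null the count called lower under CDDO-Im was 5 without vehicle replicate 1, 4 without vehicle replicate 2, 13 without vehicle replicate 3, and 12, 7 and 2 without CDDO-Im replicates 1, 2 and 3. It was 19 to 25 without any 1 wild type array and 18 without both acinar arrays. In wild type 9 were called lower without vehicle replicate 3, 8 without both acinar arrays and 1 without CDDO-Im replicate 1. With any 1 array left out, 104 to 1385 of all genes were called in wild type and 97 to 1615 in Nrf2 null. Of the 45 probe sets 15 are of the kinds that can share probes with other transcripts, and ribosomal protein genes have many pseudogene copies, so single values are uncertain.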

How the data were processed

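Expression was measured on 12 Affymetrix arrays of mouse liver, in 4 groups of 3 taken from the labels. The authors deposited log2 intensities for every probe set, and the submitters' processing notes name RMA (no version). These values were used unchanged, and the number of arrays limits the precision. Of 45101 probe sets 64 were controls. Of the others 34945 named 1 gene in GEO's platform annotation, 932 several and 9160 none, and 34741 matched RefSeq by Entrez Gene id, which changed 0 symbols. A gene was read through the brightest probe set, by mean over 12 arrays, that named it alone, which left 18193 genes with no filter on signal. With limma 3.58.1 in R 4.3.3, group means of all 12 arrays were fitted together and 6 comparisons drawn from them (prior degrees of freedom 3.8078, residual 8), with two-sided moderated tests. The call threshold was an adjusted p under 0.05 (Benjamini-Hochberg, over all genes tested), and every adjusted p is from limma. Separated means that all arrays of 1 group lay above all of the other. With 3 against 3 arrays the smallest exact permutation p is 0.1.

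The genes of the set, the other lists and the alternatives were chosen with earlier results of these data known. All genes of the set could be named, with Nfe2l2 and Nqo1, any cell type marker, and of each other list the 4 genes with the smallest adjusted p in a comparison. Fits were tested on simulated data. Alternatives were leaving out each array, leaving out both arrays with acinar transcripts, fitting only the groups compared, a replicate block, array weights, quantile normalization, a filter at a mean of 5.8, and the mean of all probe sets of a gene. Promoter sequences are RefSeq's, build GRCm38.p6.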

Additional observations from a re-analysis of the deposited data

How the results depend on the processing

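No called gene of the set changed sign under any alternative run. In wild type 4 genes were called, with 0 to 5 when 1 array was left out, 0 when only the compared arrays were fitted, 2 with the mean of probe sets and 11 with array weights. In Nrf2 null 5 were called, with 1 to 5 when 1 array was left out and 3 without both acinar arrays. The mean of both genotypes gave 9, with 7 to 10 when 1 array was left out and 5 with the mean of probe sets. Between genotypes with vehicle 1 was called, with 0 to 2 when 1 array was left out, 0 without both acinar arrays, 0 with only the compared arrays and 5 with array weights. Under CDDO-Im 3 were called, with 0 to 5 when 1 array was left out. The interaction called 0, with 0 when any 1 array was left out and 1, Myc, without both acinar arrays. Counts over all genes also moved when 1 array was left out. They ran from 104 to 1385 in wild type (332 with all 12 arrays) and from 97 to 1615 in Nrf2 null (1074). For the mean they ran from 1146 to 2630 (1903) and for the interaction from 15 to 46 (25). Between genotypes they ran from 19 to 219 with vehicle (71) and from 151 to 464 under CDDO-Im (263). The counts of 0 above are limma's. The causes of these changes were not tested, beyond fewer arrays in a fit.

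The labels state no pairing of samples. Same-numbered arrays of different groups correlated by -0.30 to 0.28 in their deviations from the group means, with 4 of 18 pairs over 0.1. Other-numbered arrays correlated by -0.40 to 0.47, with 12 of 36 pairs over 0.1. Deviations of 3 arrays sum to 0 in each group, so these correlations cannot exclude a pairing. With the replicate block the count in Nrf2 null was 3, and the other counts stayed within 1.5 times of those given: 4 in wild type, 10 for the mean, 1 and 2 between genotypes, and 0 for the interaction. In wild type Heatr1 was lost under the block (adjusted p = 0.0633) and Gnl3 gained (0.54, adjusted p = 0.0432).

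The arrays allow no statement on changes in rRNA itself, on protein, or on levels compared between genes. Polr1e, Nop58 and Wdr75 lay below the median signal of all probe sets, and 25 of the 36 genes had several probe sets, which disagreed in sign for Heatr1 and Wdr12.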

Other observations

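Of Myc targets outside ribosome biogenesis 24 were measured. In wild type under CDDO-Im 3 were called higher and 0 lower by limma, against 0.978% and 0.846% of all genes. Without wild type vehicle replicate 3 the counts were 5 and 3 and without both acinar arrays 5 and 2. They were 1 and 0 without wild type vehicle replicate 1 or wild type CDDO-Im replicate 2, and 2 to 3 and 0 without any other 1 array. The 3 were Tfrc, the transferrin receptor, by 2.24 (limma, adjusted p = 0.00591), C1qbp, a mitochondrial matrix protein, by 0.53 (adjusted p = 0.0362), and Ccnd1, cyclin D1, by 0.47 (adjusted p = 0.0137). In Nrf2 null 4 were called higher and 3 lower, against 3.58% and 2.32% of all genes. Without vehicle replicate 2 or CDDO-Im replicate 2 or 3 there, the counts were 0 and 1, and without vehicle replicate 1 or CDDO-Im replicate 1 they were 1 and 1 or 1 and 2. Without Nrf2 null vehicle replicate 3 they were 4 and 1. Without wild type vehicle replicate 3 they were 4 and 5, without both acinar arrays 3 and 5, and without any other 1 wild type array 3 to 4 and 2 to 3. With any 1 array left out, 104 to 1385 of all genes were called in wild type and 97 to 1615 in Nrf2 null. In Nrf2 null the serine and glycine enzymes Shmt2 and Shmt1 rose by 0.93 and 0.54 (adjusted p = 0.0334 for each), and C1qbp by 0.60 (adjusted p = 0.0133). Srm, spermidine synthase, fell by 0.59 (adjusted p = 0.0115) and Nme1, a nucleoside diphosphate kinase, by 0.36 (adjusted p = 0.0289). C1qbp passed in both genotypes. With vehicle Nme1 was higher in Nrf2 null than in wild type by 0.62 (adjusted p = 0.00886), a call lost without Nrf2 null vehicle replicate 2.

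Of 23 cell cycle genes none was called in either genotype alone by limma, with 3 of the 23 in wild type and 4 of the 23 in Nrf2 null at an unadjusted p under 0.05, against 13.6% and 19.4% of all genes. As a mean over both genotypes 1 of the 23 was called, Mcm7 of the replicative helicase. Of all genes 10.5% were called there, 5.62% higher. Mcm7 rose by 0.34 (adjusted p = 0.0456). The count of the list in this mean was 0 without any 1 array other than Nrf2 null vehicle replicate 3 or wild type CDDO-Im replicate 3. Mcm6 of the same helicase was higher in Nrf2 null than in wild type under CDDO-Im by 0.62 (adjusted p = 0.0204). It was the 1 of the 23 called there, against 1.45% of all genes called and 0.621% called higher. No gene of the list was called higher there without wild type CDDO-Im replicate 2 or 3 or Nrf2 null CDDO-Im replicate 1 or 2.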
